A study of Mus musculus with 18 samples.

Results

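The clustered protocadherins are cell-surface adhesion genes that lie in 3 tandem arrays, Pcdha, Pcdhb and Pcdhg. Every gene feature whose symbol begins with Pcdha, Pcdhb or Pcdhg was taken, which gave 57 of the 32286 features. They comprise 14 Pcdha, 22 Pcdhb and 21 Pcdhg features, and 2 of them carry the symbol Pcdha11. Single-cell RNA-seq was available from 8 libraries of epithelial cells from the ileum sorted for GFP, in 2 experiments with 2 WT and 2 Setdb1-KO libraries each. All mice were C57Bl6, 60 to 65 days old, carried the Lgr5-GFP-CreERT2 knock-in allele and received 1 intraperitoneal dose of 70 mg/kg tamoxifen 5 days before analysis, the WT mice included. In the Lgr5+ experiment the Lgr5+WT mice had no floxed allele and the Lgr5+Setdb1KO mice were Setdb1lox/lox. In the lineage-traced experiment both genotypes also carried nTnG, a nuclear reporter that turns from tomato red to GFP in Cre-expressing cells and stays on in their descendants. Cre is thus driven from the Lgr5 locus, whose GFP-CreERT2 allele is known to be active in only some crypts, and the labels do not say whether a library came from 1 mouse or from a pool.

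In neurons, each cell uses a few protocadherin promoters of the clusters, and the resulting mix of isoforms lets a cell recognise its own processes. Each Pcdha and Pcdhg gene joins its own first exon to constant exons at the end of its array, whereas Pcdhb genes are single exons. SETDB1, the H3K9 methyltransferase deleted here, is known to hold the clusters silent and to keep their long-range folding in brain cells. The comparison of Setdb1-KO with WT asks whether the same locus opened in intestinal epithelium.

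All 57 features matched GENCODE M21 (GRCm38) and lie on the plus strand of chromosome 18, in the order Pcdha, Pcdhb, Pcdhg. The arrays span 257.5, 259.5 and 180.1 kb. The 10x assay reads the 3′ ends of transcripts, and the counting program keeps a read only if it points to 1 gene. In all 14 Pcdha genes and in 20 of 21 Pcdhg genes the last 500 transcribed bases are shared completely with another gene, so that reads from these bases could not be assigned to 1 gene. In Pcdhgc5, the last gene of the array, 82% of these bases are shared. Of the 22 Pcdhb genes, 21 share none of their last 500 bases. The exception is Pcdhb21, which overlaps Pcdhb22 over 91% of them, and counts of this pair are uncertain. UMI counts (a UMI is a molecular tag that marks 1 captured RNA molecule) of different members are therefore not levels on 1 scale, and each member is compared with itself between groups.

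Setdb1 itself was examined first. Levels are given in CPM, the usual scaling of UMIs to a common library total, and tested genes after TMM, which centres the bulk of genes. Setdb1 stood at 10.8 and 10.3 in the Lgr5+WT libraries and at 5.12 and 6.51 in the Lgr5+Setdb1KO libraries. The log2 fold change was -0.85 (SE 0.144, adjusted p = 0.0470, edgeR quasi-likelihood test, n = 2 against 2), and Setdb1 was lower in both KO libraries. This call was lost in 7 of 15 other settings, with adjusted p up to 0.137. In lineage-traced cells Setdb1 stood at 7.07 and 5.28 CPM in WT and at 7.90 and 7.17 CPM in the libraries labelled Setdb1-KO (log2 fold change 0.24, SE 0.234, adjusted p = 0.603). The deleted exon 3 lies far from the 3′ end that the assay counts, so neither result checks the deletion. The paper reports that PCR on sorted GFP+ cells verified the deletion in the mouse lines of both experiments. It does not tie those cell preparations to single libraries. Directions in the second experiment are those of the labels.

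Kept barcodes had 1000 (Lgr5+) or 500 (lineage-traced) to 18000 UMIs and under 5% mitochondrial UMIs. They numbered 2894 to 11423 per Lgr5+ library and 3882 to 10239 per lineage-traced library, with median depths of 4686 to 9336 and 961 to 2085 UMIs. Kept UMIs ranged from 8083033 to 61336439 per library, and any pair of libraries shared at most 34 barcodes. A detection floor of 3 UMIs corresponded to 0.0489 to 0.109 CPM in the Lgr5+ libraries and to 0.112 to 0.371 CPM in the lineage-traced ones. Intervals and floors given here cover counting error only.

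Few UMIs were assigned to the locus. Over the 8 libraries the 57 features gathered 872 UMIs, of which 4 fell on Pcdha, 163 on Pcdhb and 705 on Pcdhg. No UMI was kept for 14 features, namely Pcdha1, Pcdha3 to Pcdha8, both Pcdha11 features, Pcdhac1, Pcdhac2, Pcdhb1, Pcdhb10 and Pcdhb13. At least 1 UMI was found for 43 features and at least 10 UMIs for 20.

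Among the Pcdhg genes, 13 reached 10 UMIs. They include the C-type isoforms, which stand at the end of the array and have first exons unlike those of the other genes. Pcdhgc4, an isoform known to support the survival of neurons, had the most (164), and Pcdhgc3 and Pcdhgc5 had 51 and 49. The others were Pcdhga12 (68), Pcdhga7 (63), Pcdhgb4 (50), Pcdhgb6 (39), Pcdhga5 (37), Pcdhga10 (35), Pcdhga9 (30), Pcdhga6 (24), Pcdhgb5 (23) and Pcdhgb7 (18). Among the Pcdhb genes, 7 reached 10 UMIs, led by Pcdhb17 (22), Pcdhb4 (20) and Pcdhb20 (18) and followed by Pcdhb22 (16), Pcdhb19 (15), Pcdhb8 (11) and Pcdhb16 (10).

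**Figure D1:**
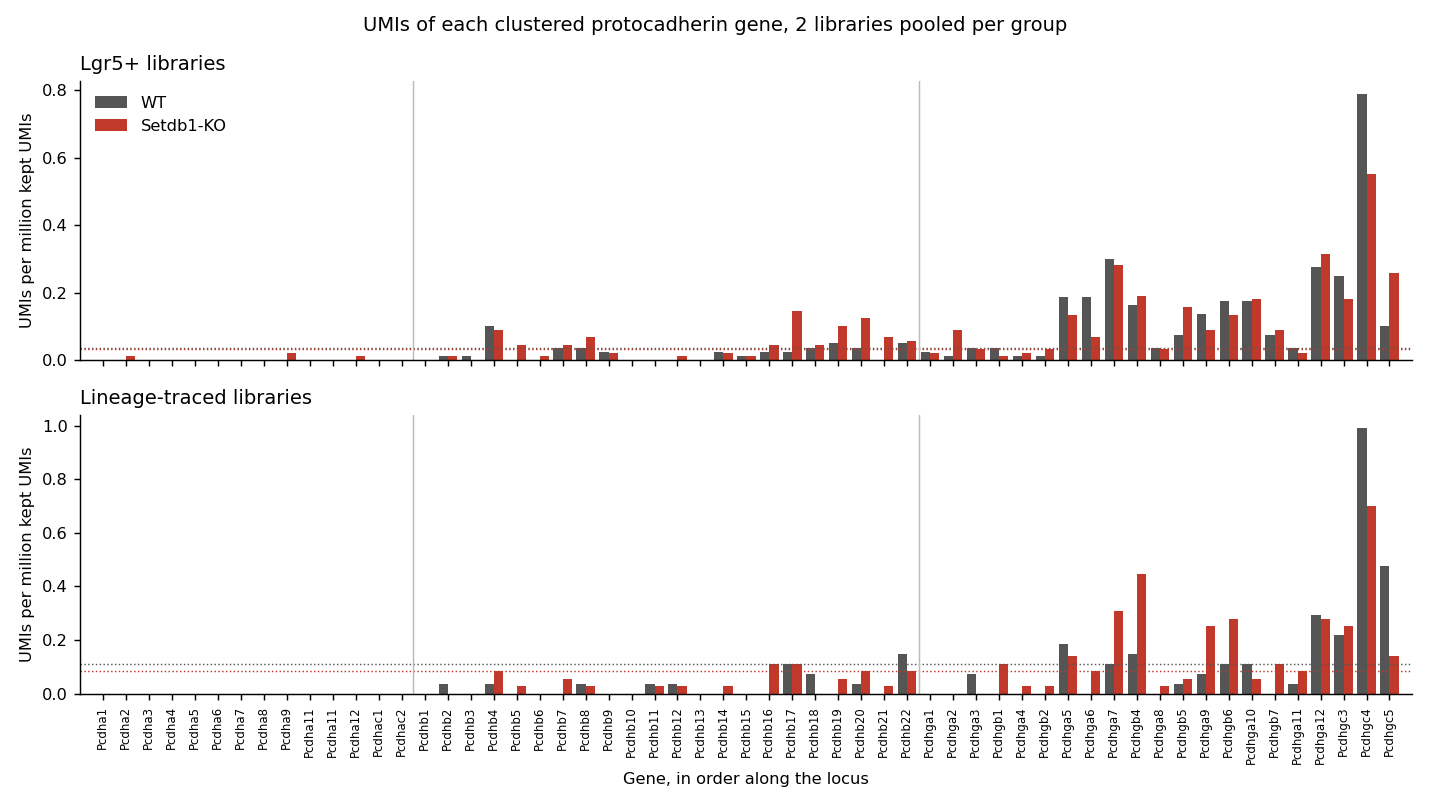
Level in CPM of kept UMIs (vertical axes) of the 57 clustered protocadherin features in their order along the locus, for WT (grey) and Setdb1-KO (red), with the 2 libraries of a group pooled. Grey vertical lines separate Pcdha, Pcdhb and Pcdhg, dotted lines mark 3 UMIs per group, and Pcdhgc4 is the tallest in both experiments while Pcdha stays at or below 2 UMIs per gene.

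Pcdha was not detected in WT cells. The Lgr5+WT libraries held 0 and 0 Pcdha UMIs and the Lgr5+Setdb1KO libraries 3 and 1, from Pcdha2, Pcdha9 and Pcdha12, so that no library exceeded the floor of 3 UMIs. All 4 lineage-traced libraries held 0 Pcdha UMIs, which at the shallowest library allows up to 0.456 CPM (95% Poisson limit). A change of Pcdha was not detectable at this depth, and its shared 3′ exons add to that limit.

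The Pcdhb array was higher in both Lgr5+Setdb1KO libraries than in either Lgr5+WT library. Its summed level was 0.416 and 0.555 CPM in Lgr5+WT (16 and 23 UMIs) and 1.27 and 0.766 CPM in Lgr5+Setdb1KO (35 and 47 UMIs). The groups did not overlap, and the means were 0.485 ± 0.098 and 1.02 ± 0.355 CPM (SD, n = 2). The pooled ratio of KO to WT was 1.89 with a counting interval of 1.28 to 2.84, or 1.93 under TMM scaling. Without Setdb1KO replicate 1, the highest library, the ratio of the means fell from 1.07 to 0.66 on the log2 scale. It fell to 0.22 without enteroendocrine-like cells, described further on, which made up 3.29% and 3.82% of kept cells in Lgr5+WT and 8.67% and 5.66% in Lgr5+Setdb1KO. With cell classes weighted equally the log2 ratio was 0.84. A sum over these genes was given no p.

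The lineage-traced Pcdhb sum was 0.575 and 0.495 CPM in WT (11 and 4 UMIs) and 1.00 and 0.673 CPM in the libraries labelled Setdb1-KO (9 and 18 UMIs). These values do not overlap either, but they depend on the scaling. Per total UMIs, the median of 10605 genes was 0.55 higher on the log2 scale in the libraries labelled Setdb1-KO, a shift that TMM scaling reduces to 0.0054. Under TMM scaling the Pcdhb sums were 0.664 and 0.621 in WT and 0.757 and 0.614 in the libraries labelled Setdb1-KO, so the groups overlapped. The pooled ratio was 1.37 (0.704 to 2.77) without and 1.00 (0.516 to 2.03) with TMM scaling. In the Lgr5+ experiment the same shift of the median gene was -0.013. The make-up of the lineage-traced libraries also differed. Paneth-like cells made up 25.7% and 61.7% of kept cells in WT against 7.43% and 2.54% in the libraries labelled Setdb1-KO, and progenitor-like cells 1.84% and 0.283% against 29.2% and 37.0%. This progenitor-like class was led by Ifitm3, Jaml and Gkn3, the last of which is on the stem marker list. At a finer clustering a cluster with these leading genes was named stem-like (3827 cells). It held 112 and 7 WT cells and 869 and 2839 cells of the libraries labelled Setdb1-KO. The part of the class make-up in the sums was not tested.

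The Pcdhg array did not separate the Lgr5+ groups. Its sum was 3.22 and 2.99 CPM in Lgr5+WT (124 and 124 UMIs), and 3.803 and 2.49 CPM in Lgr5+Setdb1KO (105 and 153 UMIs). The KO libraries thus lay on both sides of the WT libraries, and the pooled ratio was 0.935 (0.783 to 1.12). The lineage-traced sum was 2.77 and 3.09 CPM in WT and 4.22 and 3.10 CPM in the libraries labelled Setdb1-KO, without overlap, and 3.20 and 3.88 against 3.19 and 2.83 CPM under TMM. The direction turned with the scaling, with pooled ratios of 1.18 (0.882 to 1.59) per total UMIs and 0.866 (0.646 to 1.17) under TMM.

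**Figure D2:**
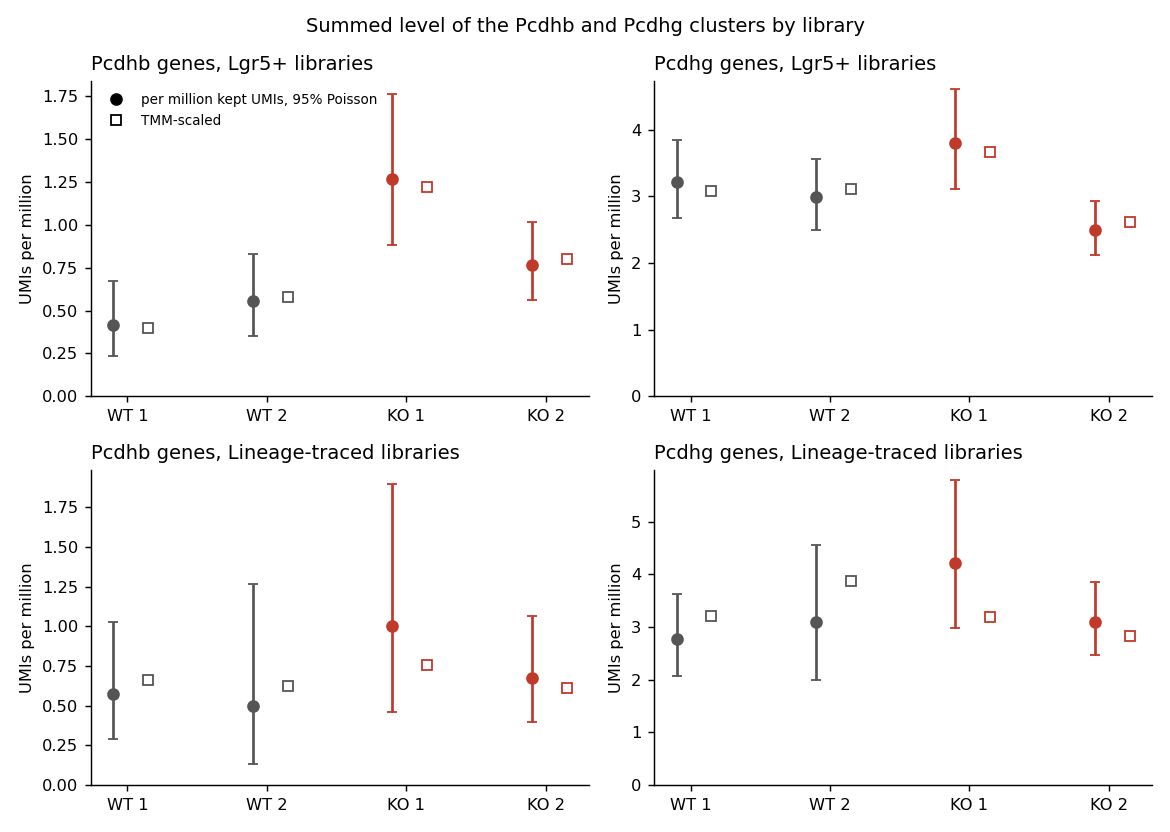
Summed level of Pcdhb (left) and Pcdhg (right) in each library, in CPM, for the Lgr5+ (top) and lineage-traced (bottom) experiments, with filled circles per kept UMIs and 95% Poisson intervals and open squares after TMM scaling. Only in the top left panel do both KO libraries (1.27 and 0.766) lie above both WT libraries (0.416 and 0.555) under both scalings.

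Gene by gene, no clustered protocadherin was called in either experiment. Only Pcdhga7, Pcdhga12 and Pcdhgc4 in the Lgr5+ experiment and Pcdhgc4 in the lineage-traced one had enough counts for the edgeR filter. For comparison, 1.34% of 13662 genes tested were called in the Lgr5+ experiment and 8.73% of 12205 in the lineage-traced one. Pcdhgc4 had 34 and 29 UMIs in Lgr5+WT against 21 and 28 in Lgr5+Setdb1KO, and overlapped in TMM-scaled CPM (0.844 and 0.727 against 0.731 and 0.478, log2 fold change -0.43, SE 0.352, adjusted p = 0.589). In lineage-traced cells it had 18 and 9 UMIs in WT against 10 and 15. On the TMM scale these are 1.09 and 1.40 CPM against 0.841 and 0.512, so the groups did not overlap, whereas per total UMIs they did (0.941 and 1.11 against 1.11 and 0.561 CPM). The test gave a log2 fold change of -0.92 (SE 0.461, 95% interval -1.92 to 0.078, adjusted p = 0.288, edgeR), or -0.43 without TMM scaling. Pcdhga7 (11 and 13 against 10 and 15 UMIs) gave -0.03 (SE 0.414, adjusted p = 0.978, edgeR) and Pcdhga12 (7 and 15 against 9 and 19 UMIs) gave 0.22 (SE 0.481, adjusted p = 0.861, edgeR). The 95% intervals of these 2 genes ran from -1.01 to 0.95 and from -0.92 to 1.36. With every gene tested that had at least 1 UMI, edgeR again called 0 of 42 members in the Lgr5+ and 0 of 34 in the lineage-traced experiment, with 1 in each (Pcdhgc5) at an unadjusted p under 0.05. Over all genes this setting called 0.172% and 7.8%. DESeq2 called 0 of the 3 and 0 of the 1 members, where it called 3.67% and 6.05% of all genes. With every gene of at least 10 UMIs tested, 0 of 17 and 0 of 9 members were called, where 1.09% and 7.92% of all genes were. An unadjusted p under 0.05 was reached by 2 members in the Lgr5+ experiment, Pcdhb17 (2.54, SE 0.9755, unadjusted p = 0.0353, adjusted p = 0.266, edgeR) and Pcdhgc5 (1.42, SE 0.560, unadjusted p = 0.0387, adjusted p = 0.276, edgeR). In the lineage-traced experiment 1 did, Pcdhgc5 (-2.12, SE 0.772, unadjusted p = 0.0150, adjusted p = 0.126, edgeR).

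Counts of single Pcdhb genes in the Lgr5+ libraries were small. Pcdhb17 had 1 and 1 UMIs in Lgr5+WT and 8 and 5 in Lgr5+Setdb1KO, a pooled ratio of 5.84 (1.32 to 53.3). Pcdhb20 had 2 and 1 against 7 and 4 UMIs, a ratio of 3.30 (0.871 to 18.4). Pcdhb19 had 2 and 2 against 4 and 5 UMIs, a ratio of 2.02 (0.565 to 8.99). These 3 genes stand close together in the array, but the gene between Pcdhb17 and Pcdhb19 overlapped between the groups (2 and 1 against 1 and 3 UMIs).

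Pcdhb21, listed at 0 and 0 UMIs in Lgr5+WT, had 3 and 3 in Lgr5+Setdb1KO, and Pcdhb5 had 0 and 0 against 2 and 2. Pcdhb8 had 1 and 2 against 2 and 4 UMIs and Pcdhb16 had 1 and 1 against 2 and 2. Of the 18 Pcdhb genes detected in the Lgr5+ experiment, these 7 (Pcdhb5, Pcdhb8, Pcdhb16, Pcdhb17, Pcdhb19, Pcdhb20 and Pcdhb21) had both KO libraries above both WT libraries in CPM and 0 had them below. Among all 20363 genes with a UMI in that experiment, 17.7% had both KO libraries above both WT libraries. In the lineage-traced experiment 2 of 15 detected Pcdhb genes (Pcdhb4 and Pcdhb16) did so, where the share over all genes was 47.6%. A gene with 0 UMIs in either KO library cannot lie above WT, and most of these 15 genes had such a 0. The share over all genes is per total UMIs, a scale on which the median gene stood 0.55 higher (log2). The 2 shares are thus not alike. Pcdhb16 was the only member above WT in both experiments, which held for 7.09% of 21213 genes. Pcdhb17 stood at 1 and 2 against 2 and 2 UMIs there, Pcdhb20 at 0 and 1 against 0 and 3, and Pcdhb19 at 0 and 0 against 0 and 2. Pcdhb4, the second most counted Pcdhb gene, had 2 and 6 against 2 and 6 UMIs in the Lgr5+ libraries, and Pcdhb22 had 1 and 3 against 0 and 5.

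Among the Pcdhg genes of the Lgr5+ experiment, 3 of 21 (Pcdhga2, Pcdhgb5 and Pcdhgc5) had both KO libraries above both WT libraries, and 1, Pcdhgc3, had them below. Over all genes with a UMI there, 17.7% had them above and 20.6% below. In the lineage-traced experiment 4 of 19 detected Pcdhg genes had them above and 2 below, where 47.6% and 8.04% of all genes did. These shares too are per total UMIs, and some of the Pcdhg genes had 0 UMIs in a KO library. Pcdhgc5 had ratios on opposite sides of 1 in the 2 experiments. It had 4 and 4 UMIs in Lgr5+WT against 10 and 13 in Lgr5+Setdb1KO, a ratio of 2.59 (1.12 to 6.68). In lineage-traced cells it had 11 and 2 UMIs in WT against 1 and 4 in the libraries labelled Setdb1-KO, a ratio of 0.293 (0.0818 to 0.876). It was under the filter of the interaction test, and without that filter the test of the difference gave -3.57 on the log2 scale (SE 1.14, adjusted p = 0.0281, edgeR). In that unfiltered test 7.39% of 21213 genes were called. With the filter and each of the 8 libraries left out in turn, no member was called, the smallest adjusted p over members being 0.0586 to 0.406 (edgeR). Pcdhgc4, the only member that passed the filter of that test, gave -0.49 (SE 0.576, adjusted p = 0.669, edgeR), where 7.58% of 13781 genes were called.

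Clustered protocadherin UMIs were concentrated in enteroendocrine-like cells, the hormone-secreting cells of the epithelium. Cells were clustered without the 57 features, and clusters were named from marker lists (Chga, Chgb, Tac1, Neurog3, Gip and others for enteroendocrine). In the Lgr5+ experiment 1288 enteroendocrine-like cells held 3.36% of all kept UMIs but 65 of 121 Pcdhb UMIs (53.7%) and 147 of 506 Pcdhg UMIs (29.1%). The Pcdhb level in these cells was 7.13 and 7.88 CPM in Lgr5+WT and 16.3 and 11.4 CPM in Lgr5+Setdb1KO. In all other cells it was 0.266 and 0.371 CPM in WT and 0.384 and 0.356 CPM in KO. Enteroendocrine-like cells were above the other cells in 4 of 4 libraries, for Pcdhg as well (21.9 to 33.2 CPM against 1.74 to 2.79 CPM).

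The order of the other classes, over both genotypes, was tuft-like, goblet-like, stem-like and progenitor-like for Pcdhb, with Paneth-like and enterocyte-like cells at 0. For Paneth-like cells this 0, of 4765930 UMIs, allows up to 0.774 CPM (95% Poisson limit). That is above the goblet-like, stem-like and progenitor-like levels, so Paneth-like cells could not be ranked against them. Tuft-like cells, chemosensory cells of the crypt and villus, had 2.90 CPM (13 UMIs, 1.54 to 4.96). Mucus-secreting goblet-like cells had 0.739 CPM (25 UMIs, 0.478 to 1.09) and stem-like cells 0.319 CPM (12 UMIs, 0.165 to 0.558). Tuft-like lay above goblet-like and goblet-like lay above progenitor-like cells (0.0966 CPM) without overlap of these intervals, whereas goblet-like and stem-like cells overlapped. In WT cells alone the tuft-like (1.68 CPM, 0.346 to 4.90) and goblet-like (0.905 CPM, 0.495 to 1.52) intervals overlapped too. Enterocyte-like cells, the absorptive cells, had 0 Pcdhb UMIs of 20267292, which allows up to 0.182 CPM, and only 4 Pcdhg UMIs (0.197 CPM). Pcdhg was at 7.58 CPM in tuft-like, 5.23 in goblet-like, 2.73 in Paneth-like, 1.76 in stem-like and 1.03 in progenitor-like cells.

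In the lineage-traced experiment only 301 enteroendocrine-like cells were kept. They had 5 Pcdhb UMIs (7.69 CPM, 2.50 to 17.9) and 18 Pcdhg UMIs (27.7 CPM, 16.4 to 43.7), the highest values of that experiment too. Goblet-like cells followed with 1.37 CPM for Pcdhb and 5.71 CPM for Pcdhg. Enterocyte-like cells had 0 Pcdhb UMIs of 7093990, which allows up to 0.520 CPM. That limit lies above the Paneth-like (0.256 CPM) and progenitor-like (0.398 CPM) Pcdhb levels there, so this 0 does not set enterocyte-like cells apart from them. Both experiments thus had enteroendocrine-like cells first for both arrays and 0 Pcdhb UMIs in enterocyte-like cells.

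**Figure D3:**
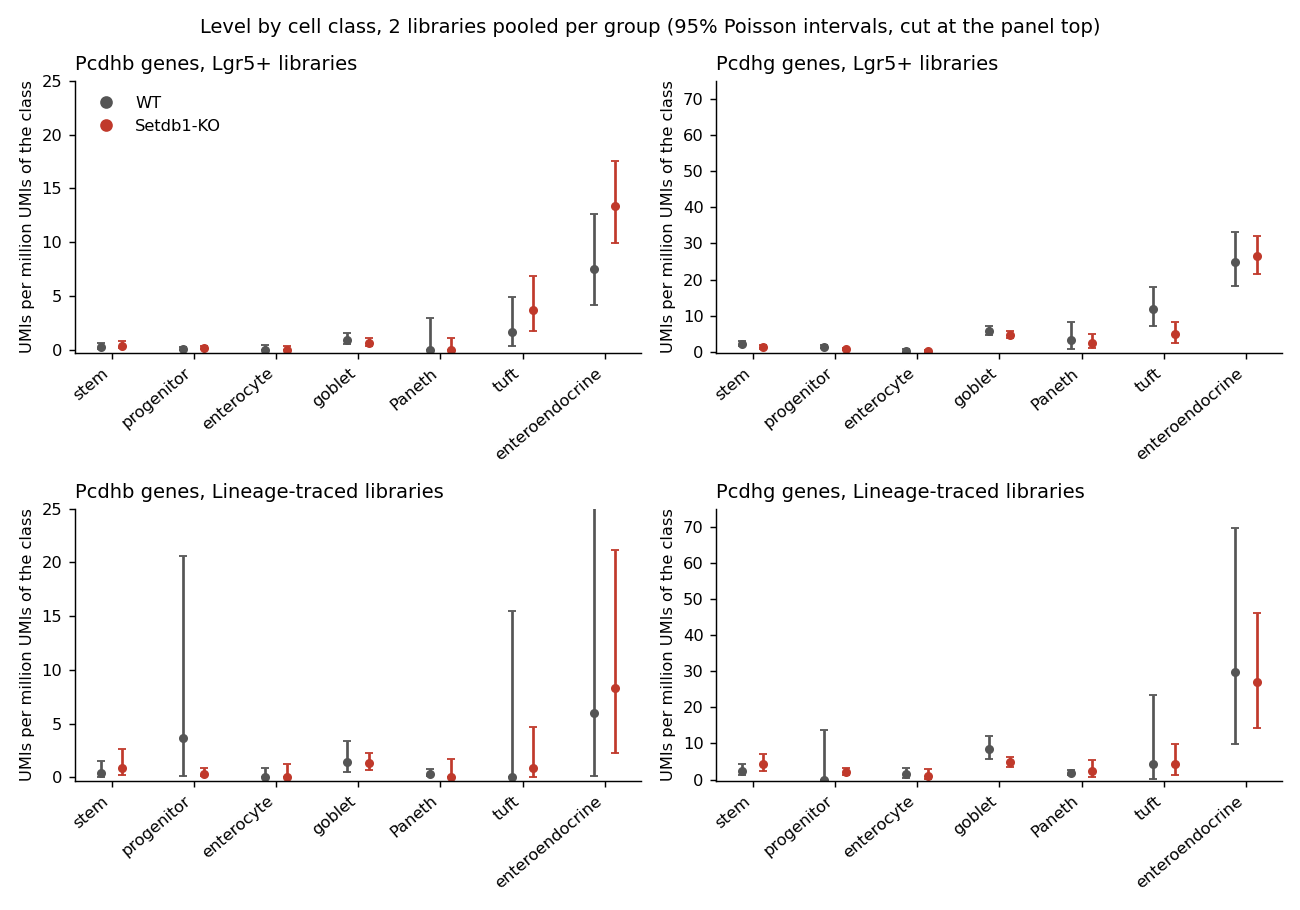
Pcdhb (left) and Pcdhg (right) level in CPM of each cell class in the Lgr5+ (top) and lineage-traced (bottom) experiments, WT in grey and Setdb1-KO in red, with 2 libraries pooled per point and 95% Poisson intervals. Enteroendocrine-like cells stand highest in each panel, at 7.54 (WT) and 13.3 (KO) for Pcdhb in the Lgr5+ experiment, and bars that reach the panel top continue beyond it.

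The share of cells with a UMI showed the same order. At least 1 Pcdhb UMI was found in 4.27% of Lgr5+ enteroendocrine-like cells (55 of 1288, median depth 3405 UMIs) and in 0 of 2786 enterocyte-like cells, which had a greater median depth of 6512 UMIs. With each cell thinned to 1000 UMIs the expected shares were 1.30% and 0%. At least 1 Pcdhg UMI was found in 10.1% and 0.144%, and in 3.06% and 0.0123% after thinning. Barcodes of 10 to 100 UMIs, which hold free RNA and no cell, gave 5 Pcdhb and 17 Pcdhg UMIs of 11432070, or 0.437 and 1.49 CPM over all libraries. Most of these UMIs (7331151, with 3 of the Pcdhb and 9 of the Pcdhg UMIs) came from lineage-traced WT replicate 2. The Lgr5+ libraries had 1 Pcdhb and 2 Pcdhg UMIs of 2578484 (0.388 CPM, 0.00982 to 2.16, and 0.776 CPM, 0.0939 to 2.80), all from KO replicate 1, so that free RNA in the other 3 libraries could not be measured. The level of enteroendocrine-like cells lay above these intervals for both arrays. In stem-like and progenitor-like cells of the same libraries the Pcdhg intervals (1.36 to 2.23 and 0.794 to 1.32 CPM) lay above that of enterocyte-like cells (0.0538 to 0.505 CPM). Both lay within the free RNA interval of Pcdhg, however. The Pcdhb intervals of goblet-like, stem-like and progenitor-like cells likewise lay within the free RNA interval of Pcdhb. These free RNA intervals rest on 1 Pcdhb and 2 Pcdhg UMIs and are wide. They give the make-up of free RNA, not its amount in a cell. They could thus not decide the question, and a level above free RNA was not shown for these classes.

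Few cells held more than 1 member UMI. Of 52015 kept cells, 823 (1.58%) held a member UMI and 45 held 2 or more, at most 3. In 36 of the 45 cells the UMIs belonged to at least 2 genes. Of the 41 such cells in the Lgr5+ experiment, 31 were enteroendocrine-like, and 30 of these held at least 2 genes, 7 with Pcdhb and Pcdhg together. Of 6 goblet-like cells with 2 or more UMIs, 3 held a single gene, which was Pcdhgc4 each time.

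Pcdhgc4 had the highest share of UMIs from goblet-like cells, 61.6%, of the 17 members with at least 10 UMIs in the Lgr5+ experiment. There goblet-like cells held 69 of its 112 UMIs, at 58.8% and 75.9% in the WT and 57.1% and 53.6% in the KO libraries. The other 20 Pcdhg genes had 108 of 394 UMIs (27.4%) in goblet-like cells, at 32.2%, 20.0%, 20.2% and 34.4% of the same libraries, and the 2 ranges did not overlap. The other C-type isoforms came next, with 15 of 31 UMIs (48.4%) for Pcdhgc5 and 17 of 36 (47.2%) for Pcdhgc3. In lineage-traced goblet-like cells Pcdhgc4 had 9 of 18, 3 of 9, 8 of 10 and 4 of 15 UMIs, against 13 of 35, 4 of 16, 8 of 28 and 26 of 68 for the others, and these shares overlapped. Of the same 17 members, Pcdhgc4 had the lowest share of UMIs from enteroendocrine-like cells (14.3%) and Pcdhb17 the highest (73.3%). These are shares of UMIs, and goblet-like cells held 18.2% to 21.8% of all kept UMIs of the Lgr5+ libraries. By level, Pcdhgc4 was not lower in enteroendocrine-like than in goblet-like cells. It stood at 2.82 CPM (1.61 to 4.58) against 2.04 CPM (1.59 to 2.58) in the Lgr5+ experiment. In lineage-traced cells it stood at 7.68 CPM (2.50 to 17.9) against 1.83 CPM (1.17 to 2.72), and the intervals overlap in both experiments.

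The share of enteroendocrine-like cells itself was higher in both Lgr5+Setdb1KO libraries. Besides the values given for all kept cells, with cells of at least 2000 UMIs it was 3.03% and 3.59% against 8.59% and 4.48%. The summed level of the 15 enteroendocrine markers was 1036 and 1453 CPM in WT and 4653 and 2063 CPM in KO, and none of the 15 was at 0. Tuft-like cells, the class with the next highest Pcdhb level, were higher in both KO libraries too, at 2.24% and 3.11% of kept cells in WT and 4.08% and 3.51% in KO, with a sum of their 12 markers of 328 and 330 against 592 and 408 CPM. T cell markers were lower in both KO libraries (127 and 76.2 CPM against 19.2 and 14.8 CPM), and the 70 T cell-like cells held 0 Pcdhb and 1 Pcdhg UMIs. These are shares of cells sorted for GFP and above a UMI limit, not of the tissue. The paper ascribes the mature enterocytes, goblet, Paneth, tuft and enteroendocrine cells of this sort to gating and to incomplete enrichment for GFP+ cells. It counts immature enterocytes and the precursor clusters Goblet-I and EEC-I among the cells with GFP mRNA. Which of these cells the classes used here hold was not tested. Whether the cells of these classes had expressed Cre was not tested. Of 6 enteric neuron and glia markers, Sox10 and Ncam1 were at 0 in all libraries, and the summed level of the list overlapped between the groups (0.857 and 0.458 CPM against 1.23 and 0.750 CPM).

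Outside the enteroendocrine-like class Pcdhb overlapped between the genotypes of the Lgr5+ experiment. The 25 WT and 31 KO UMIs of all other cells gave a ratio of 1.14 (0.650 to 2.01), and the library values given above overlapped. Inside the class, 14 WT and 51 KO UMIs gave a ratio of 1.77 with an interval of 0.965 to 3.46, and both KO libraries stayed above both WT libraries. Within the class 4 of 16 detected Pcdhb genes had both KO libraries above both WT libraries, where 16.7% of 16393 genes did. All 4 are among the 7 named above, which were taken for the same pattern over all cells. They are Pcdhb16 (0 and 0 against 2 and 2 UMIs), Pcdhb17 (0 and 1 against 7 and 3), Pcdhb20 (0 and 1 against 5 and 3) and Pcdhb21 (0 and 0 against 3 and 2). Outside the class 2 of 16 detected Pcdhb genes, Pcdhb5 and Pcdhb17, had that order, against 13.9% of 19701 genes. Among the other classes Pcdhb had 14 WT and 11 KO UMIs in goblet-like cells, 6 and 6 in stem-like cells, 3 and 10 in tuft-like cells and 2 and 4 in progenitor-like cells, and the interval of each ratio included 1. By library, both KO values lay below both WT values in goblet-like cells (0.672 and 1.12 against 0.598 and 0.599 CPM). They lay above them in tuft-like (1.35 and 1.90 against 3.58 and 3.77 CPM) and progenitor-like cells, and overlapped in stem-like cells. The tuft-like values rest on 1 and 2 WT against 3 and 7 KO UMIs, and the progenitor-like ones on 1 and 1 against 1 and 3. The WT values of these classes were under the floor of 3 UMIs, and the progenitor-like KO values did not exceed it. The share of all genes with such an order within the classes was not computed. In a sum over a whole library, more enteroendocrine-like cells and more Pcdhb RNA per cell cannot be told apart. Lineage-traced Pcdhb outside the class was at 0.526 and 0.497 CPM in WT and 0.788 and 0.607 CPM in KO, without overlap. The ratio was 1.26 (0.622 to 2.65) per total UMIs, a scale on which the median gene stood 0.55 higher (log2). Inside the class 1 WT and 4 KO UMIs gave 7.30 and 0 against 18.6 and 5.32 CPM, which overlap.

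A separate clustering at a finer resolution gave 3 enteroendocrine-like groups of 446, 446 and 398 cells, and Pcdhb was present in each. Cells led by Neurog3, the factor that starts endocrine differentiation, had 12.6 CPM (8.33 to 18.4). Cells led by Chga and Tph1, genes of serotonin-producing cells, had 11.01 CPM (6.72 to 17.0), and cells led by the hormone genes Gip, Gcg and Cck had 10.3 CPM (6.12 to 16.3). These intervals overlap. The pooled ratios of KO to WT were 1.38 (0.562 to 3.87), 3.38 (0.810 to 30.1) and 1.62 (0.543 to 5.82), each with an interval that includes 1. By library, both KO values lay above both WT values only in the group led by Chga and Tph1 (0 and 6.94 against 15.3 and 12.7 CPM). They overlapped in the group led by Neurog3 (8.80 and 11.2 against 23.1 and 7.21 CPM) and in that led by Gip, Gcg and Cck (10.02 and 5.39 against 8.24 and 15.3 CPM). Pcdhg was at 28.1, 30.8 and 17.8 CPM in the same groups.

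**Figure D4:**
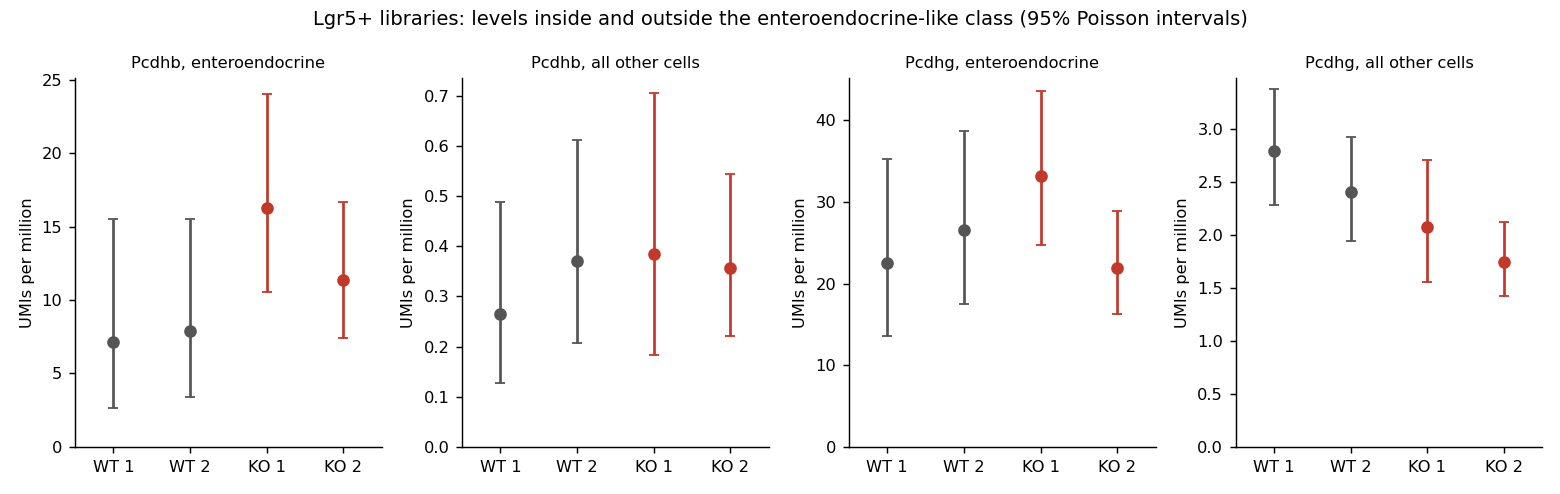
Pcdhb and Pcdhg level in CPM in the 4 Lgr5+ libraries, inside the enteroendocrine-like class and in all other cells, with 95% Poisson intervals (vertical axes differ). For Pcdhb the KO libraries lie above WT inside the class (16.3 and 11.4 against 7.13 and 7.88) and overlap WT outside it, while for Pcdhg they lie below WT outside it.

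Pcdhg was divided in the same way. Inside the enteroendocrine-like class the level was 22.6 and 26.6 CPM in WT and 33.2 and 21.9 CPM in KO, with a ratio of 1.07 (0.745 to 1.55). In all other cells it was 2.79 and 2.40 CPM in WT and 2.07 and 1.74 CPM in KO, with a ratio of 0.713 (0.575 to 0.883), so both KO libraries lay below both WT libraries, as they did for 24.8% of 19701 genes. Stem-like cells had 2.66 and 1.72 CPM in WT and 1.22 and 1.32 CPM in KO (44 and 22 UMIs, ratio 0.596, 0.340 to 1.02). Progenitor-like cells had 1.42 and 1.26 CPM in WT and 0.836 and 0.683 CPM in KO (41 and 23 UMIs, ratio 0.543, 0.311 to 0.927), and tuft-like cells had 21 WT and 13 KO UMIs (ratio 0.411, 0.189 to 0.861). The median gene of these 3 classes differed by -0.055 to -0.015 on the log2 scale between the genotypes, so that scaling moves these ratios little. The part of free RNA in these ratios was not tested.

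In the lineage-traced libraries the Pcdhg order differed between classes. Outside the enteroendocrine-like class it was at 2.58 and 2.98 CPM in WT and 3.83 and 2.81 CPM in the libraries labelled Setdb1-KO, which overlap (ratio 1.14, 0.836 to 1.55). This ratio is per total UMIs, a scale on which the median gene of all cells stood 0.55 higher (log2), and under TMM the ratio over all cells turned from 1.18 to 0.866. The median gene differed by 0.11 in stem-like and 0.021 in goblet-like cells. Stem-like cells had 2.22 and 2.71 CPM in WT and 3.90 and 4.39 CPM in KO (11 and 14 UMIs, ratio 1.78, 0.752 to 4.34), without overlap and in the direction opposite to the Lgr5+ stem-like cells. Cells with Gkn3 among the leading genes were named stem-like in the Lgr5+ experiment but progenitor-like here. The stem-like classes of the 2 experiments may thus hold unlike cells. Progenitor-like cells had 0 UMIs in WT, where only 145 and 11 cells were kept, and 26 in KO. Goblet-like cells had 8.10 and 9.59 CPM in WT and 5.12 and 4.58 CPM in KO (ratio 0.565, 0.347 to 0.932), the opposite order to the stem-like cells. The make-up of this goblet-like class differed between the genotypes, as given further on with Pcdh17. In the Lgr5+ experiment the goblet-like Pcdhg level overlapped between the groups (6.58 and 5.11 against 5.78 and 4.35 CPM). Pcdhgc4 in goblet-like cells was at 2.69 and 2.74 CPM in Lgr5+WT and at 2.39 and 1.12 CPM in Lgr5+Setdb1KO. It was the only member that could be tested within a class, with a log2 fold change of -0.79 (SE 0.420, unadjusted p = 0.0921, adjusted p = 0.967, edgeR), where 0.31% of 10980 genes were called. In the lineage-traced goblet-like cells Pcdhgc4 stood at 3.31 and 4.11 CPM in WT and at 2.56 and 0.610 CPM in the libraries labelled Setdb1-KO. No member passed the filter within a lineage-traced class.

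Of 19 genes in and beside the locus, 16 were tested in the Lgr5+ experiment and 13 in the lineage-traced one. In the former 0 were called higher and 1, Cd14, was called lower, and in the latter 0 were called. Taf7, a subunit of the general factor TFIID whose gene lies inside the locus on the minus strand, stood at 18.02 and 17.8 against 21.4 and 22.3 TMM-scaled CPM in the Lgr5+ libraries. The groups did not overlap and the log2 fold change was 0.29 (SE 0.0836, adjusted p = 0.149, edgeR). In lineage-traced cells it was at 11.7 and 8.22 against 13.45 and 13.9 CPM (0.42, SE 0.231, adjusted p = 0.337, edgeR). Both KO libraries of each experiment thus lay above both WT libraries without passing the test.

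Diaph1, an actin-nucleating formin whose gene lies 1.73 kb after the last Pcdhg gene, gave -0.04 and -0.14 in the 2 experiments (adjusted p = 0.858 and 0.776, edgeR). Hdac3, a histone deacetylase 94.0 kb after it, gave 0.02 and -0.05 (adjusted p = 0.911 and 0.916, edgeR). Zmat2, a splicing factor 130.5 kb before Pcdha1, gave -0.02 and 0.44 (adjusted p = 0.921 and 0.317, edgeR). The signs of Diaph1, Hdac3 and Zmat2 in the Lgr5+ experiment turned when single libraries were left out. Without TMM scaling Diaph1 and Hdac3 gave 0.40 and 0.46 in the lineage-traced experiment, where the median gene stood at 0.55.

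Cd14, the lipopolysaccharide co-receptor, lies 203 kb before Pcdha1. It fell from 20.4 and 20.8 CPM in Lgr5+WT to 3.97 and 7.05 CPM in Lgr5+Setdb1KO (log2 fold change -1.86, SE 0.224, adjusted p = 0.0191, edgeR), the only gene called of the 16. It also fell in stem-like (-1.66, adjusted p = 0.00307, edgeR, 1.12% of genes called) and progenitor-like cells (-1.88, adjusted p = 0.00387, edgeR, 0.868% called). The call over all cells was lost without the filter on low counts, with the replicate block and without either WT library, with adjusted p of 0.0509 to 0.0794 (edgeR). The log2 fold change stayed between -1.92 and -1.85 in these settings. In lineage-traced cells Cd14 was at 3.56 and 6.05 against 4.88 and 7.95 CPM (0.54, SE 0.309, adjusted p = 0.358, edgeR). It was called there without KO replicate 1 (0.84, adjusted p = 0.0165, edgeR).

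**Figure D5:**
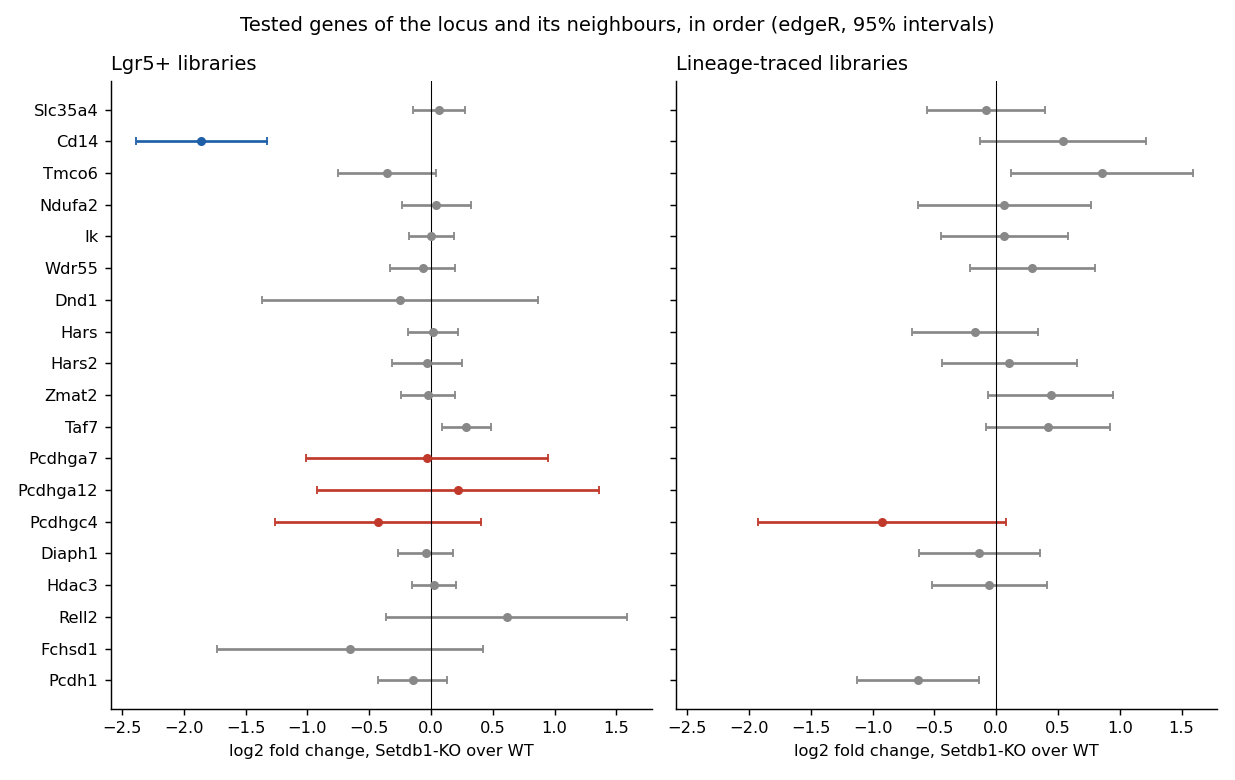
Log2 fold change of Setdb1-KO over WT (horizontal axis, edgeR with 95% intervals) for the tested members (red) and the tested genes before, inside and after the locus, in their order on the chromosome, for the Lgr5+ and lineage-traced libraries. Cd14 (blue) at -1.86 is the only gene called, and the intervals of all 3 tested Pcdhg genes include 0.

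Other protocadherins and the genes that act on the locus gave few calls. Of 12 non-clustered protocadherins 3 were tested in each experiment and 0 were called. Pcdh1, an epithelial adhesion gene, gave -0.15 and -0.63 in the 2 experiments (adjusted p = 0.574 and 0.124, edgeR). Pcdh17 fell in lineage-traced goblet-like cells (log2 fold change -2.20, SE 0.530, adjusted p = 0.0121, edgeR), where 1.86% of 9670 genes were called. A cluster led by Retnlb and Mptx1 made up 367 of 1329 and 85 of 300 WT cells of that class. It made up 125 of 1741 and 312 of 1840 cells in the libraries labelled Setdb1-KO, and its part in the fall was not tested.

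Of 32 genes of chromatin architecture and silencing at the locus (among them Ctcf, cohesin, Smchd1, Trim28 and the DNA methyltransferases), all 32 were tested in both experiments and only Setdb1 was called, lower, in the Lgr5+ one. Smchd1, known to repress clustered protocadherins, was at 54.6 and 50.3 against 43.7 and 46.7 CPM there (-0.21, SE 0.0837, adjusted p = 0.259, edgeR). Of 9 genes of protocadherin signalling and processing (Wnk1, Ptk2, Ptk2b, Adam10, the presenilins and others) 0 were called. In lineage-traced enterocyte-like cells, where 27% of 8153 genes were called, Dnmt1, Cbx3, Cbx5 and Smc1a rose (log2 fold changes of 0.92 to 1.17) and Pcdh1 and Ptk2b fell (-1.12 and -1.35). Most WT cells of this class came from a cluster led by Apoa4 and Apoa1 (1256 of 1608 and 363 of 452). In the libraries labelled Setdb1-KO few did (15 of 182 and 29 of 523). Genotype and the make-up of this class cannot be told apart in these changes.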

How the data were processed

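Libraries were made with the 10x Genomics 3′ assay. The authors counted UMIs per gene and barcode with Cell Ranger (6.1.1 in the submitters' notes, build mm10) and deposited these raw counts for all barcodes, unfiltered. The counted annotation is not given in the sources used here, and GENCODE M21 (GRCm38) was used for positions. Total RNA, scATAC and H3K9me3 samples were not used here. The members and lists were chosen with earlier results of these data known. Cells were clustered per experiment in scanpy 1.11.5 (2000 variable genes without the members, 10 components, 20 neighbours, Leiden resolution 0.5). A cluster got the class whose markers scored highest if the score was at least 0.5 on a log2 scale, 3 markers were detected and no other class led its top 10 genes. 2 lineage-traced clusters stayed unnamed. Doublets were kept, and removal of high scores was an alternative. Counts summed per library, or per library and class with at least 20 cells in each library, were tested with the quasi-likelihood test of edgeR 4.0.16 after TMM scaling, on genes that passed filterByExpr, with genotype as the only term and a Benjamini-Hochberg threshold of 0.05 over all genes tested. DESeq2 1.42.0 was an alternative. Ratios of pooled UMIs carry exact 95% conditional binomial intervals and levels exact 95% Poisson intervals. The study's methods describe the replicates as biological. Named members either passed the filter or had at least 10 UMIs, and members with fewer are named where they make up a count. Sequences of members are not shown. The scripts were tested on simulated data.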

Additional observations from a re-analysis of the deposited data

Results flagged for a closer look

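Of 8 genes (Pcdhgc4, Setdb1, Cd14, Taf7, Diaph1, Hdac3, Zmat2 and Smchd1) 2 had effects that differed between the experiments by the interaction term of edgeR over the 8 libraries, where 7.58% of 13781 genes were called. The 8 were chosen with earlier results known. For Setdb1 the log2 effect in the lineage-traced experiment minus that in the Lgr5+ experiment was 1.09 (SE 0.273, adjusted p = 0.0327, edgeR). For Cd14 it was 2.45 (SE 0.433, adjusted p = 0.00454, edgeR). The experiments differ in reporter, sort, depth and UMI limit, and what sets the differences apart was not tested.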

How the results depend on the processing

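Across the alternatives run, 113 of 134 recomputed values of the counts of called members, of Setdb1 and of the summed levels were counted as unchanged. These include counts of called members that stayed at 0. They also include values near 0 that changed sign, such as the log2 ratio of the Lgr5+ Pcdhg library means (0.020, and -0.17 with classes weighted equally). The ratio of pooled UMIs given earlier for the same sum was 0.935, below 1. The count of called members remained 0 in both experiments and within classes under each alternative, including the replicate block. Most of these fits tested only 3 members in the Lgr5+ experiment, 1 in the lineage-traced one and 1 within Lgr5+ classes. In the main run no member was tested within lineage-traced classes, so that 0 was fixed in advance. The interaction test called 1 member, Pcdhgc5, without the filter on low counts. The replicate numbers were not taken as pairs, since there are only 2 of them, with correlations of -0.022 and 0.41. With the block, Setdb1 in the Lgr5+ experiment gave -0.86 (adjusted p = 0.112, edgeR), and Cd14 lost its call. Setdb1 lost its call also at -0.86 without a filter, at -0.85 with 10 UMIs in all and at -0.86 with the doubled UMI limit, and ranged from -1.05 to -0.71 with single libraries left out. The cause was not tested.

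Ratios in this paragraph are of library means unless called pooled, and on the log2 scale unless stated. The Lgr5+ Pcdhb ratio of 1.07 moved to 0.52 over every barcode. In alternatives chosen after seeing the data it moved to 0.22 without and 0.88 in the enteroendocrine-like class. The same ratio was 0.84 with classes weighted equally and ranged from 0.66 to 1.39 with single libraries left out. The Lgr5+ Pcdhg ratio of 0.02 moved to -0.44 without that class and ranged from -0.32 to 0.29 with single libraries left out. The lineage-traced Pcdhb ratio of 0.65 moved to 1.30 over every barcode, 0.093 with TMM-scaled totals and 1.71 in the enteroendocrine-like class, and ranged from 0.33 to 0.90 with single libraries left out. The lineage-traced Pcdhg ratio of 0.32 moved to 0.76, -0.23 and -0.026 under the same alternatives and to 0.051 with classes weighted equally, and ranged from 0.083 to 0.53 with single libraries left out. The lineage-traced Pcdhb value of 1.71 rests on 1 WT and 4 KO UMIs. Their pooled ratio, not on the log2 scale, was 1.38 (0.137 to 68.2).

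Signs turned for genes far from the threshold. With single libraries left out, Lgr5+ values ranged from -0.23 to 0.21 for Pcdhga7, -0.23 to 0.87 for Pcdhga12, -0.12 to 0.025 for Diaph1, -0.012 to 0.052 for Hdac3 and -0.14 to 0.074 for Zmat2, and the lineage-traced Hdac3 value from -0.17 to 0.047. In the Lgr5+ experiment Pcdhga7 gave 0.10 without WT replicate 2, 0.21 without KO replicate 2 and 0.0052 over every barcode. Pcdhga12 gave -0.23 without WT replicate 1 and -0.077 with high doublet scores removed. Diaph1 gave 0.025 and 0.00077 without WT replicate 2 and KO replicate 2. Hdac3 gave -0.012 without KO replicate 1. Zmat2 gave 0.012 and 0.074 without WT replicate 2 and KO replicate 1. In the lineage-traced experiment Diaph1 and Hdac3 gave 0.40 and 0.46 without TMM scaling, below the median gene (0.55), and Hdac3 gave 0.0075 with the doubled UMI limit and 0.047 without KO replicate 1. In that experiment, with that same shift of the median gene, calls were gained without TMM scaling by Cd14 (1.01, adjusted p = 0.0217), Taf7 (0.95, adjusted p = 0.0165), Zmat2 (0.98, adjusted p = 0.00633) and Smchd1 (0.85, adjusted p = 0.0189, all edgeR), and by Cd14 without KO replicate 1 (0.84, adjusted p = 0.0165, edgeR). Of the 57 features 37 have under 10 UMIs in all, and reads from the shared 3′ ends of Pcdha and Pcdhg genes could not be assigned.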
